A study of Mus musculus with 24 samples.

Results

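The peaks described here were open chromatin sites of alveolar-like mouse macrophages that were called in nearly every unstimulated culture and in no culture that had received lipopolysaccharide (LPS). They are the 848 consensus peaks on chromosomes 1 to 19, of 184158 consensus peaks in all and 179185 on these chromosomes, that were overlapped by an entry of the authors' per-library peak list in at least 10 of the 12 unstimulated libraries and in 0 of the 12 LPS libraries. The calls of the 24 lists, and so the accessibility of the same libraries: members were chosen by these calls with and without LPS. The change with LPS, and its difference between genotypes, are therefore given below as descriptions without a test, and tests are given only for the effect of the genotype. All 848 members passed the filter on low counts that left 174193 peaks for testing.

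The libraries were ATAC-seq libraries, in which a transposase cuts DNA where chromatin is open, from bone marrow-derived macrophages (BMDMs) of C57BL/6J wildtype (WT) mice and of AhR-KO mice (B6.129-Ahr tm1Bra/J), which carry the deletion in all cells of the animal. Marrow was cultured in 10% serum with TGF-β at 2 ng/ml and GM-CSF at 10 ng/ml, conditions chosen to give alveolar-like cells, and LPS was given at 97 EU/ml on day 6 for 24 h. Both genotypes were sampled with and without LPS in 4 groups of 6 libraries, from 6 animals per group in 1 experiment per the study's methods. The labels carry the LPS text and a final 10 min with 5 µM of a calcium ionophore on every library, so the treatment field alone separates the groups, and whether unstimulated cells also received the ionophore is not given. A library averages over its cells, so fewer cells with an open site and less opening per cell cannot be told apart.

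In macrophages, enhancers are opened by lineage factors such as PU.1, C/EBP, RUNX and KLF proteins, and the sites they hold together set the character of the tissue macrophage. LPS, a cell wall component of bacteria, is sensed by TLR4 and activates NF-kB, AP-1 and interferon factors, which open further enhancers, while a part of the resting enhancers closes. AhR, the aryl hydrocarbon receptor, senses small aromatic ligands and binds DNA together with ARNT at a short core sequence.

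The 9 sequences below, each 300 bases around the centre of a member, show letters that were more frequent in the lost peaks than in all peaks and letters that were rarer. They were read from the + strand of GRCm38 (RefSeq), the same assembly as mm10. Capitals mark matches on either strand to PU.1 (GAGGAAGT), C/EBP (TTGCNNAA), RUNX (TGTGGTT), KLF (CCACACCC) or AP-1 (TGANTCA), and a match is a description of letters, not of a bound factor. The Spns1 peak (chr7:126374595-126374894), the Klf4 peak (chr4:55817263-55817562) and the Spi1 peak (chr2:91089159-91089458) each hold 1 PU.1 match, with 2 C/EBP matches in the Klf4 peak. The Capn15 peak (chr17:25982901-25983200) holds 1 C/EBP match and the Rnh1 peak (chr7:141169975-141170274) 1 KLF match. The Pde4d peak (chr13:109326078-109326377) and the Znhit6 peak (chr3:145564820-145565119), both lower in AhR-KO cells, each hold 1 RUNX and 1 C/EBP match. The Ankrd63 peak (chr2:118706765-118707064) with 2 AP-1 matches and the Tle3 peak (chr9:61376342-61376641) with 1 stand for the motif whose share differed most in percentage points. These last peaks followed from a rule, under which a Myc peak (chr15:61935620-61935986) also qualified but is not printed. The other 7 were chosen after their values were seen.
Spns1 peak: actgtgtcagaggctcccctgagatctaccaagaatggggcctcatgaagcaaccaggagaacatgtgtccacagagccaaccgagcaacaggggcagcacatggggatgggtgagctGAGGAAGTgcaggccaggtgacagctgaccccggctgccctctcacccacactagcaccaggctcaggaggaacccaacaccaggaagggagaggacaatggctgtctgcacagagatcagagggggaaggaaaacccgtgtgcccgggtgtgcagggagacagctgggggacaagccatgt
Klf4 peak: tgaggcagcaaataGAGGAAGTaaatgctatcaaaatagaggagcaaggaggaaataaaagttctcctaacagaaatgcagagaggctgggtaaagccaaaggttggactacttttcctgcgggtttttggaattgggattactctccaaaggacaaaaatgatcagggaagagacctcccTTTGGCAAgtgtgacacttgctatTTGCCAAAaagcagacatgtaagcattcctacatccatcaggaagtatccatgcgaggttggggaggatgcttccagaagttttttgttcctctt
Spi1 peak: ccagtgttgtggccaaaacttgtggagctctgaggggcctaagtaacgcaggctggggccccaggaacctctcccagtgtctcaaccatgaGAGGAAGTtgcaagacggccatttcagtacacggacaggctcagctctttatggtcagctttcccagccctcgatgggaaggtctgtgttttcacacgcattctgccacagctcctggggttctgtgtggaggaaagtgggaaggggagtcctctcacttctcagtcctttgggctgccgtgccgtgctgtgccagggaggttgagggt
Capn15 peak: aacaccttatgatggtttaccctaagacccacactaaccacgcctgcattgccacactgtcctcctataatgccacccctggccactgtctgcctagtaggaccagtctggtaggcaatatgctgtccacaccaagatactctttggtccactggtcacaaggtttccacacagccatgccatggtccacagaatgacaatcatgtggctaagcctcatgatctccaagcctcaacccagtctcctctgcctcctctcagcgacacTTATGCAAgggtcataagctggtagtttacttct
Rnh1 peak: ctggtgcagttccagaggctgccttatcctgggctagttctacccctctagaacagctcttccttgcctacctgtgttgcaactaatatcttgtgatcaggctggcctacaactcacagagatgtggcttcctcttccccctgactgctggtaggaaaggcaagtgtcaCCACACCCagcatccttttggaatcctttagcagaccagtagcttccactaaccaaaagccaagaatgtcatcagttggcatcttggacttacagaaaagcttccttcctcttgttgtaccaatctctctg
Pde4d peak: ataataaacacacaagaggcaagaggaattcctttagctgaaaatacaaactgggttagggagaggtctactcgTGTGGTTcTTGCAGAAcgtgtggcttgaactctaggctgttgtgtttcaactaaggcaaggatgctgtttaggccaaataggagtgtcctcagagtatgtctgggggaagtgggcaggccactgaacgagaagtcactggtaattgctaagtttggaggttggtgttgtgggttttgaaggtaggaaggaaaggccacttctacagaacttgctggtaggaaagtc
Znhit6 peak: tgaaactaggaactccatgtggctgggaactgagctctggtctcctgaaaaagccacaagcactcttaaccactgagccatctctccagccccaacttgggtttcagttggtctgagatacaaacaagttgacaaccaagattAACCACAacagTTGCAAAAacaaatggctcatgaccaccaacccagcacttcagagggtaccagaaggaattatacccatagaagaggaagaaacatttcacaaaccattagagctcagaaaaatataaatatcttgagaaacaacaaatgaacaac
Ankrd63 peak: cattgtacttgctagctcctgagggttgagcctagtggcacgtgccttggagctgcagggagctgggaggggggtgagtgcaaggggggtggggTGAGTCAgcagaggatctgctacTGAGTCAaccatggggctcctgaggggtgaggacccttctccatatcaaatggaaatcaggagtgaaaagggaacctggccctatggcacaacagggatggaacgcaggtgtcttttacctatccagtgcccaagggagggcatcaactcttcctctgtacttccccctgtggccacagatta
Tle3 peak: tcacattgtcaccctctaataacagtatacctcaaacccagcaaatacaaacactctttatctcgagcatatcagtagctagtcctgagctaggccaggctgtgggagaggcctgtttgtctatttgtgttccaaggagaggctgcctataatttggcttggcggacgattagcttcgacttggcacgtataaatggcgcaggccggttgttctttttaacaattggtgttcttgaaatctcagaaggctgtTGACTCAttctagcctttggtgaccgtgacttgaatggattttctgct

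Total counts in peaks ran from 8.54 to 23.1 M in WT and 18.9 to 25.7 M in AhR-KO unstimulated libraries, and from 25.1 to 34.6 M and 22.4 to 28.5 M with LPS. Levels are therefore given as CPM, the counts divided by the library's TMM-scaled total in M. WT unstimulated replicates 5 and 1 were the shallowest unstimulated libraries, at 8.54 and 15.5 M, and their lists held 520 and 632 of the members against 782 to 831 in the other 10. The genotype was checked at the Ahr start site (chr12:35534069-35535364), which stayed open in the knockout: its median was 22.3 CPM in WT and 13.1 CPM in AhR-KO unstimulated cells, and 19.9 and 15.1 CPM with LPS. The log2 fold change there was -0.78 without LPS (edgeR adjusted p = 2.98e-10) and -0.45 with LPS (edgeR adjusted p = 4.52e-06). Of the 13 peaks inside the gene only the one at the start site was read here, so the deletion itself was not read. Start sites of 6 of 8 macrophage markers and 22 of 23 alveolar macrophage genes lay in a peak, as did those of 7 of 22 markers of other cells (S100a8, Kit, Flt3, Zbtb46, Ccr7, Siglech and Epcam). The other 15, among them Cd3e, Ncr1 and Mpo, had no peak there.

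The members ranged from deep to shallow calls. They were called in all 12 unstimulated lists for 267 peaks, in 11 for 275 and in 10 for 306. Median levels followed these classes: 3.73 CPM without and 0.984 CPM with LPS for 12 lists, 2.74 and 0.806 CPM for 11, and 2.19 and 0.717 CPM for 10. Just outside the rule, 320 peaks called in 9 unstimulated lists and no LPS list had 1.94 and 0.699 CPM. Another 595 peaks called in at least 10 unstimulated lists and in 1 LPS list had 2.55 and 0.917 CPM. The level left with LPS, the mean of the 12 LPS libraries as a percentage of that of the 12 unstimulated ones, had a median of 33.4% in the class of 10 lists, 36.2% in the class of 9 and 37.0% in the class with 1 LPS list.

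All members together took a smaller share of the reads in each LPS library than in any unstimulated one. Their summed level was 2690 to 2930 CPM in the WT unstimulated and 2990 to 3360 CPM in the AhR-KO unstimulated libraries. It was 876 to 1010 CPM in the WT LPS and 878 to 950 CPM in the AhR-KO LPS libraries.

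**Figure D1:**
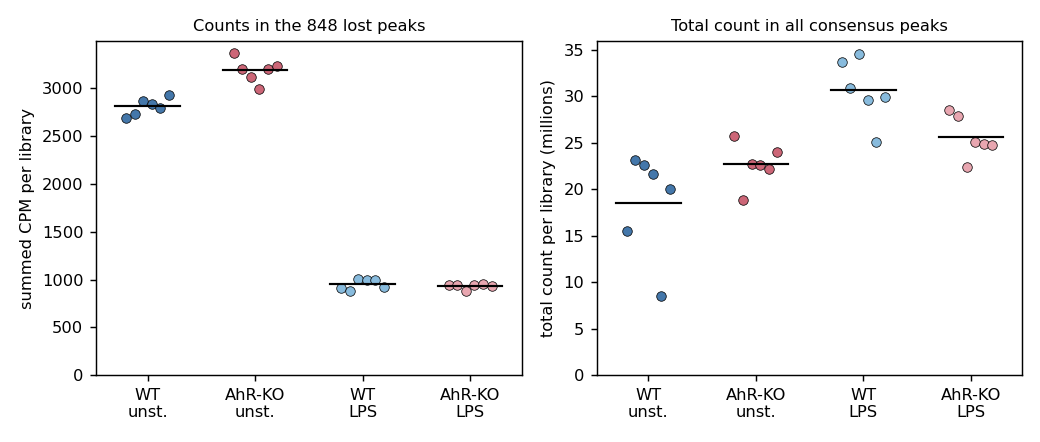
Summed CPM of the 848 lost peaks (left) and total counts in all peaks in M (right) for each of the 24 libraries, by group. Points are libraries, lines are group means, and the 12 unstimulated libraries lie at 2690 CPM or above and the 12 LPS libraries at 1010 CPM or below.

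In WT cells the log2 fold change with LPS had a median of -1.62 over the members and ran from -3.39 to 0.19, and in AhR-KO cells it had a median of -1.76 and ran from -4.12 to 0.31. Over all peaks the medians were -0.01 and 0.05. Of the members, 829 (97.8%) were lower DARs in WT cells and 823 (97.1%) in AhR-KO cells, where a differentially accessible region (DAR) had an edgeR adjusted p of at most 0.05 and a change of at least 1.5-fold. Over all tested peaks 21.6% were lower DARs in WT and 21.5% in AhR-KO cells, and nothing is read from this difference because the rule used the same contrast. Every unstimulated library lay above every LPS library for 730 members (86.1%), as for 8.98% of all peaks. At most 50% of the unstimulated level was left in 774 members, at most 25% in 254 and at most 10% in 10. The median level left was 30.6%, and the whole range was 7.51% to 118%.

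**Figure D2:**
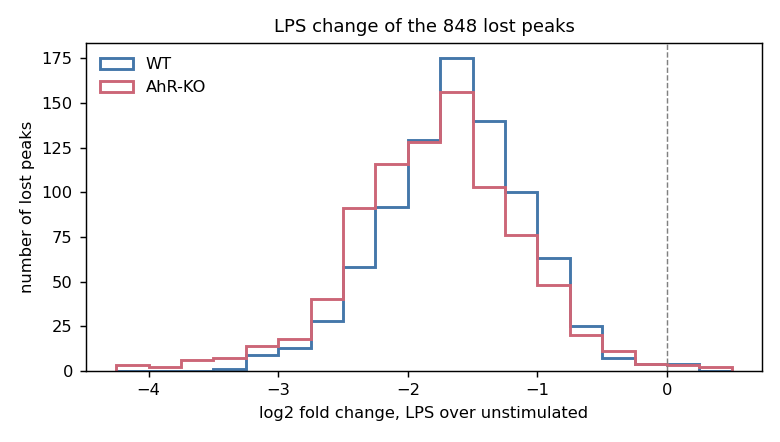
Histogram of the log2 fold change with LPS over the 848 lost peaks, in WT and in AhR-KO cells; the y axis counts peaks. The medians are -1.62 and -1.76, with a tail up to 0.31.

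The most accessible member lay in an intron of Rin3 (chr12:102291867-102292967), a gene for an exchange factor of the endosomal GTPase Rab5. It had 12.9 to 20.5 CPM in WT (median 17.6) and 25.9 to 33.9 CPM in AhR-KO unstimulated libraries (median 31.8), and 5.57 to 7.18 CPM (median 6.21) and 5.98 to 7.39 CPM (median 6.62) with LPS. Without LPS the genotypes did not overlap there, and with LPS they did. The intronic Spns1 peak (chr7:126374470-126375018), in a gene for a lysosomal lipid transporter, fell from 14.3 to 19.2 CPM (median 15.1) in WT and 13.5 to 28.2 CPM (median 20.9) in AhR-KO cells to 1.14 to 2.44 CPM (median 1.81) and 1.4 to 2.26 CPM (median 1.73). The peak 60.1 kb downstream of the start of Plxna1, a semaphorin receptor gene (chr6:89297296-89297866), had 9.58 to 14.5 CPM (median 12.9) in WT and 24.7 to 38.9 CPM (median 30.1) in AhR-KO unstimulated libraries. With LPS it had 1.03 to 2.18 CPM (median 1.49) and 1.72 to 3.26 CPM (median 2.68), or 9.47% of the unstimulated level. The lowest level left, 7.51%, was found in an intron of Capn15, a calpain family gene (chr17:25982765-25983335). That peak had 7.07 to 8.86 CPM (median 8.4) and 12.5 to 23.5 CPM (median 16.9) in WT and AhR-KO unstimulated libraries, and 0.766 to 1.01 CPM (median 0.866) and 0.831 to 1.18 CPM (median 1.04) with LPS. The Spns1 and Capn15 peaks are the ones printed above with a PU.1 and a C/EBP match. Near Id1, an inhibitor of helix-loop-helix factors that is known as a target of SMAD signalling, the peak at chr2:152739363-152739990 went from 13.8 to 19.8 CPM (median 16.8) in WT and 14.8 to 21 CPM (median 15.9) in AhR-KO cells to 4.92 to 6.99 CPM (median 5.69) and 3.81 to 6.6 CPM (median 4.45).

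**Figure D3:**
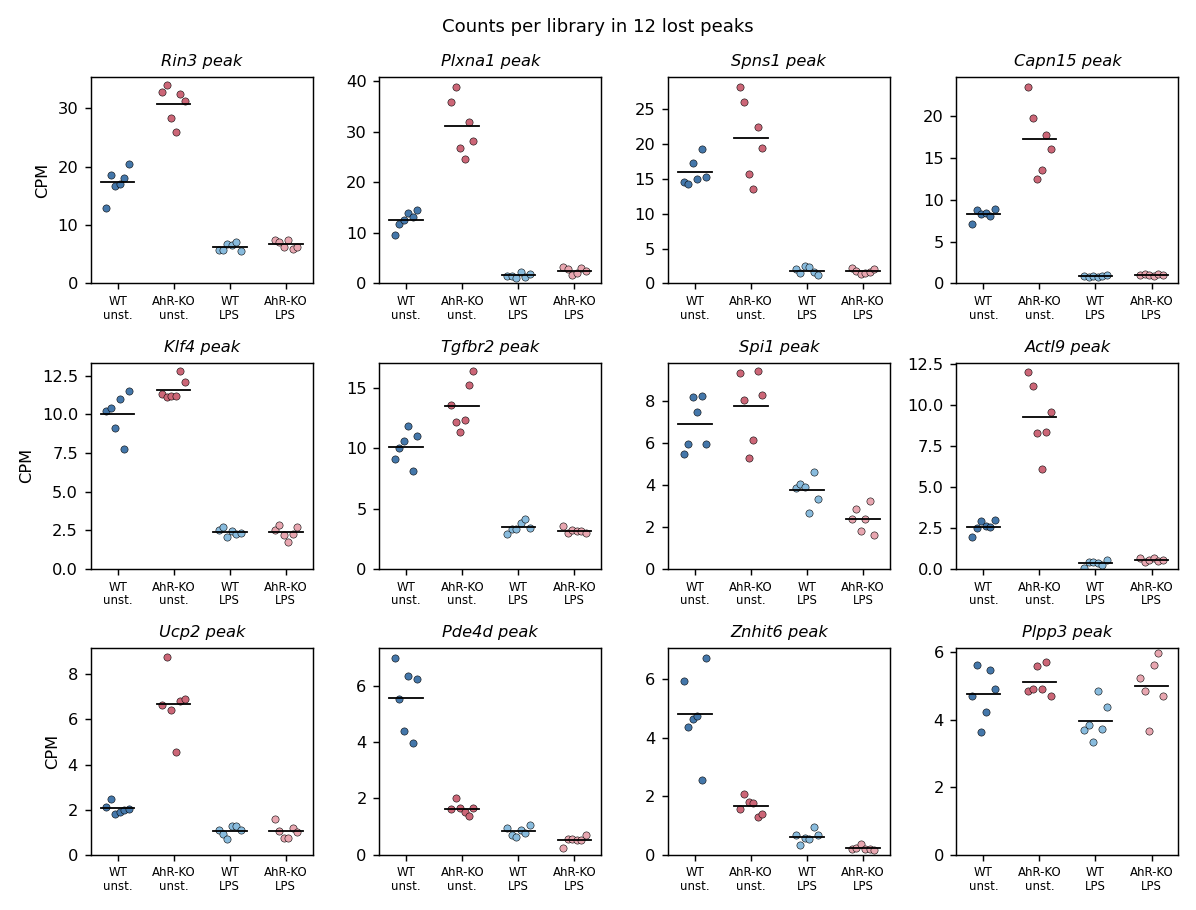
CPM in each of the 24 libraries for 12 lost peaks, named by the nearest gene, by group, with points for libraries and lines for group means. In 11 of them each LPS median lies below each unstimulated median, and in the Plpp3 peak (91.0% left) the groups overlap.

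The lost peaks were mostly distal and narrow. Their median width was 452 bases (183 to 3947), against 550 bases for all peaks and 991 bases for the 61907 kept peaks, which were called in at least 10 unstimulated and at least 10 LPS lists. Only 11 members (1.3%) overlapped the start site of a protein-coding gene, against 7.29% of all and 18.8% of kept peaks. A further 390 (46.0%) were intronic, 388 (45.8%) intergenic and 59 (6.96%) exonic, and the median distance to a start site was 25.5 kb, close to the 26.5 kb of all peaks. Among the start sites were those of Krt19, a keratin gene of epithelia (chr11:100145950-100146301, 12.2% left), and of Hoxa10, a homeobox gene of blood progenitors (chr6:52240150-52241356, 35.7% left). The Krt19 peak had 1.0 to 2.09 CPM (median 1.84) in WT and 2.19 to 4.92 CPM (median 3.34) in AhR-KO unstimulated libraries, and 0.0333 to 0.517 CPM (median 0.31) and 0.122 to 0.538 CPM (median 0.38) with LPS. Members lay on all 19 chromosomes, and 91 of them (10.7%) stood in 43 clusters with gaps of at most 50 kb.

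The 848 peaks had 770 nearest protein-coding genes, of which 704 had 1 member, 56 had 2, 8 had 3 and 2 had 4. The nearest gene is a label of position, and no transcript level was measured in these libraries. The 2 genes with 4 members were Svil, which encodes an actin-binding protein, and Myc, which encodes a transcription factor of growth and division. The Myc peaks lay from 335 kb upstream to 172 kb downstream of the gene's start and kept 21.4% to 36.5% of their level. All 4 medians were lower with LPS in both genotypes. At the one 335 kb upstream (chr15:61649732-61650186) the medians were 3.13 CPM in WT and 1.98 CPM in AhR-KO unstimulated cells and 0.797 and 0.602 CPM with LPS. Of the Myc peaks, 0 passed the DAR threshold between genotypes. Without LPS the peak 335 kb upstream missed only the 1.5-fold change (log2 fold change -0.58, edgeR adjusted p = 0.00587). The other Myc peaks had -0.22, -0.34 and -0.41.

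Genes for lineage transcription factors of macrophages were the list with the most members: 12 lost peaks (1.42%) had 1 of 9 of its 21 genes as the nearest, against 0.717% of all peaks. These were Bach2, Irf8, Klf4, Mef2a, Runx1, Rxra, Spi1, Tfec and Zeb2. The list also had the most consensus peaks of the 13 lists, 1284. Of its 1225 tested peaks, 274 were lower and 332 higher DARs with LPS in WT cells. In AhR-KO cells 268 were lower and 382 higher, so lost peaks do not stand for these genes as a whole. Spi1 encodes PU.1, and its peak in an intron (chr2:91089096-91089520), printed above, had 5.48 to 8.26 CPM (median 6.74) in WT and 5.27 to 9.44 CPM (median 8.18) in AhR-KO unstimulated libraries. With LPS it had 2.67 to 4.63 CPM (median 3.88) in WT and 1.62 to 3.22 CPM (median 2.39) in AhR-KO libraries, and the genotypes overlapped in both treatments. The Klf4 peak lay 285 kb upstream of the gene for this KLF factor (chr4:55817098-55817726), went from 7.79 to 11.5 CPM (median 10.3) in WT and 11.1 to 12.8 CPM (median 11.3) in AhR-KO cells to 2.1 to 2.73 and 1.78 to 2.84 CPM (median 2.39 in both), and did not overlap between treatments. Mef2a, a MADS-box factor gene, had 3 members upstream of its start, with gaps under 50 kb between them. The strongest of them (chr7:67463651-67463993) went from 8.19 to 11 CPM (median 8.83) and 6.76 to 10.1 CPM (median 9.02) to 1.34 to 2.12 CPM (median 1.55) and 1.09 to 1.54 CPM (median 1.47), with 16.6% left.

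The genes that mark alveolar macrophages had 4 members (0.472%, against 0.273% of all peaks) at Itgax, Plet1 and Tgfbr2, and TGF-β signalling had 3 (0.354% against 0.324%) at Acvr2a, Smurf1 and Tgfbr2. Tgfbr2 encodes the type 2 receptor of TGF-β, the cytokine in the culture medium, and its intronic peak (chr9:116138599-116139806) had 8.14 to 11.8 CPM (median 10.3) in WT and 11.3 to 16.4 CPM (median 12.9) in AhR-KO unstimulated libraries. With LPS it had 2.88 to 4.12 CPM (median 3.36) and 2.96 to 3.52 CPM (median 3.15), below all unstimulated libraries. Smurf1 encodes a ubiquitin ligase that acts on SMAD proteins. Its intronic peak (chr5:144895485-144895811) went from 2.71 to 4.65 CPM (median 3.7) and 4.61 to 8.38 CPM (median 5.31) to 0.27 to 0.684 CPM (median 0.47) and 0.291 to 0.792 CPM (median 0.52), with 10.5% left. The peak near Itgax, the gene for the integrin chain CD11c, lay in an exon of another gene 1.49 kb upstream of its start (chr7:128127907-128128210) and kept 44.0%.

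Receptors and lipid enzymes were represented by single peaks. Scavenger and phagocytic receptors had 2 members (0.236% against 0.134% of all peaks). One, near Fcgr2b, the gene of the inhibitory IgG receptor (chr1:170955678-170956217), went from 4.45 to 8.38 CPM (median 5.6) in WT and 7.95 to 12.3 CPM (median 10.5) in AhR-KO cells to 0.749 to 1.5 CPM (median 1.32) and 0.858 to 2.04 CPM (median 1.24). The other lay near Axl, a receptor for the uptake of dying cells (chr7:25794728-25795204, 20.3% left). Of 13 eicosanoid synthesis genes, 3 had a member (0.354% against 0.17%): Tbxas1 (thromboxane synthase), Ltc4s (leukotriene C4 synthase) and Pla2g4a (the phospholipase that frees arachidonic acid). The Tbxas1 peak, in an intron (chr6:38978768-38979201), had 5.47 to 7.2 CPM (median 6.76) in WT and 8.0 to 12 CPM (median 9.42) in AhR-KO unstimulated libraries, and 1.14 to 1.66 CPM (median 1.32) and 1.27 to 1.75 CPM (median 1.42) with LPS. The peaks nearest to Ltc4s, inside Maml1, and to Pla2g4a had under 2 CPM without LPS in WT medians (1.16 and 1.63 CPM), with 57.0% and 59.2% left. G protein-coupled receptors had 3 members (0.354% against 0.234%) at Ccr3, Cxcr4 and Ptger4, integrins 2 (0.236% against 0.202%), cell cycle genes 5 (0.59% against 0.257%, 4 of them at Myc), lipid handling 1 at Abca1 (0.118% against 0.198%) and macrophage markers 1 at Spi1 (0.118% against 0.0553%). LPS-induced inflammatory genes and AhR targets had 0 members, where 0.147% and 0.0363% of all peaks had such a gene as the nearest. Markers of other cells had 1, the peak near Epcam, at 0.118% against 0.117% of all peaks.

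Some members left the lists without passing the DAR threshold with LPS. It was missed by 29 members in 1 or both genotypes, of which 15 missed it in both, 4 in WT cells only and 10 in AhR-KO cells only. In 4 of them, nearest to Orm1, Kif5b, Il1rap and Csf2, the LPS level was 118%, 117%, 108% and 104% of the unstimulated one, and these genes were chosen after their values were seen. The Il1rap peak (chr16:26605822-26606439), near the gene of a coreceptor of interleukin 1, had 2.16 to 2.78 CPM (median 2.48) in WT and 2.29 to 3.15 CPM (median 2.91) in AhR-KO unstimulated libraries and 2.25 to 3.12 CPM (median 2.61) and 2.12 to 3.54 CPM (median 3.02) with LPS. Next to it, 783 bases away, lay a peak with a WT log2 fold change of 2.12. The nearest neighbouring peak of the 29 had a median log2 fold change with LPS in WT cells of 1.2, and 18 of the 27 tested neighbours (66.7%) were higher DARs. For the 819 members that fell in both genotypes this median was -0.22, with 146 of 790 neighbours (18.5%) higher. Over all 848 the neighbours had a median of -0.20, and 31.6% of them were lower and 20.1% higher DARs, against 21.5% and 25.9% of the neighbours of all peaks. Since these counts come from the libraries that chose the members, they are descriptions only.

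Of the 770 nearest genes, 613 had a peak at the start site, and its median log2 fold change with LPS was -0.12 in WT and -0.18 in AhR-KO cells, against -0.06 and -0.11 over the 12240 genes with such a peak. Lower DARs were 69 (11.3%) in WT and 114 (18.6%) in AhR-KO cells, against 5.68% and 10.5% of all such start sites. Higher DARs were 17 (2.77%) and 19 (3.1%), against 3.62% and 4.22%. The start site was called in at least 10 LPS lists for 562 (91.7%) of the genes, and for 92.7% of all. The 11 members that overlap a start site were not left out of these counts. Since the rule used the LPS calls of the same libraries, the counts are descriptions only.

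The comparison of AhR-KO with WT cells without LPS asks how the receptor bears on sites that LPS closes. By edgeR's quasi-likelihood test 133 members (15.7%) were higher DARs in AhR-KO cells and 55 (6.49%) were lower ones, against 9.95% higher and 12.6% lower of all tested peaks. Among the 70701 peaks called in at least 10 unstimulated lists, with or without LPS calls, 8.17% were higher and 7.42% lower. The groups of 6 did not overlap for 122 members higher in AhR-KO cells (14.4%, against 9.78% of all peaks) and for 49 lower ones (5.78% against 11.3%). The median log2 fold change was 0.131 over the members and -0.021 over all peaks. The 2 shallowest unstimulated libraries were both WT, and 414 members were called in more AhR-KO than WT lists against 74 in more WT than AhR-KO lists. Of the 188 members called in 4 WT and 6 AhR-KO lists 49 (26.1%) were higher and 0 lower, and of the 25 called in 6 WT and 4 AhR-KO lists 0 were higher and 12 (48%) lower. Of the 226 called in 5 WT and 6 AhR-KO lists 37 (16.4%) were higher and 3 (1.33%) lower. Of the 49 called in 6 WT and 5 AhR-KO lists 0 were higher and 15 (30.6%) lower. In these unequal classes the direction and the way the members were admitted cannot be told apart. Of the peaks named below, those at Stk10, C8a, Ucp2, Vps13d and Tle3 were called in 4 WT and 6 AhR-KO lists. Those at Pde4d, Ccne1, Pstpip1 and Nebl were called in 6 WT and 5 AhR-KO lists. The Smurf1, Pard3 and intronic Svil peaks were called in 5 WT and 6 AhR-KO lists. Of the 267 members called in all 12 lists 45 (16.9%) were higher and 20 (7.49%) lower. The higher share was 16.7% (181 of 1083) when the rule left out WT replicate 5 and 20.4% (278 of 1363) when it left out replicates 1 and 5. The lower shares were 7.29% and 5.8%. Both forms leave fewer WT than AhR-KO lists in the rule. Direction and the way the members were admitted cannot be told apart there either.

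Start sites of marker genes also varied between the groups. Those of the 22 alveolar macrophage genes summed to 540 to 598 CPM in WT and 604 to 763 CPM in AhR-KO unstimulated libraries, and to 468 to 521 and 462 to 530 CPM with LPS. The 6 of macrophage markers summed to 113 to 130 CPM and 130 to 167 CPM without LPS, and to 105 to 117 and 101 to 131 CPM with it. The 7 of markers of other cells summed to 63 to 81.9 CPM and 62.4 to 69.7 CPM without LPS, and to 65.9 to 81.1 and 49.7 to 55.7 CPM with it. Among the last, Kit, a receptor gene of progenitors and mast cells, had a median of 11.2 CPM in WT and 4.83 CPM in AhR-KO cells without LPS (log2 fold change -1.21, edgeR adjusted p = 9.35e-12). Flt3, a receptor gene of dendritic cells and progenitors, had 9.49 and 4.36 CPM (-1.16, edgeR adjusted p = 5.31e-07). Siglech (-0.77, edgeR adjusted p = 0.000502), Epcam (-0.47, edgeR adjusted p = 0.000246) and Ccr7 (-0.82, edgeR adjusted p = 0.109) had lower values too. The 2 most open went the other way: Zbtb46 had 21.9 and 25.5 CPM (0.21, edgeR adjusted p = 0.0312). S100a8 had 20.5 and 23.3 CPM (0.25, edgeR adjusted p = 0.00854). With LPS the medians at Ccr7, a gene of mature dendritic cells, went from 0.838 to 7.73 CPM in WT and from 0.558 to 2.06 CPM in AhR-KO cells, and at Siglech, a gene of plasmacytoid dendritic cells, from 4.91 to 1.82 CPM and from 2.67 to 1.92 CPM. The part of such cells in the changes of the lost peaks was not tested.

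Among the members that were higher in AhR-KO cells, the peak 1480 kb from Flrt2, the closest coding start (chr12:94210580-94211110), had 1.33 to 3.14 CPM (median 2.26) in WT and 7.81 to 10.9 CPM (median 9.15) in AhR-KO unstimulated libraries, a log2 fold change of 2.09 (SE 0.151, edgeR adjusted p = 2.81e-13). In an intron of Rasgrf1, a gene for a Ras exchange factor (chr9:89930835-89931486), the level was 1.49 to 3.49 CPM (median 2.3) against 7.3 to 10.4 CPM (median 8.15), a change of 1.94 (SE 0.154, edgeR adjusted p = 2.13e-12). Stk10 encodes a kinase of the proteins that join membrane and actin. Its intronic peak (chr11:32560348-32560753) had 5.48 to 9.19 CPM (median 7.52) against 16.4 to 19.1 CPM (median 17), a change of 1.2 (SE 0.102, edgeR adjusted p = 1.12e-11). The peaks at C8a (1.91, edgeR adjusted p = 1.23e-11) and Actl9 (1.82, edgeR adjusted p = 2.07e-11) completed the 5 higher members with the smallest p. Among the most accessible members the change was 1.30 at Plxna1 (edgeR adjusted p = 1.53e-09), 1.05 at Capn15 (edgeR adjusted p = 1.3e-09) and 0.83 at Rin3 (edgeR adjusted p = 8.09e-10). At Fcgr2b it was 0.81 (edgeR adjusted p = 3.91e-05) and at Smurf1 0.67 (edgeR adjusted p = 0.00148), with overlapping groups at both.

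Among the members that were lower in AhR-KO cells was a peak in an intron of Pde4d, a gene for a cyclic AMP phosphodiesterase (chr13:109325983-109326472). It had 3.96 to 7.0 CPM (median 5.89) in WT and 1.37 to 2.0 CPM (median 1.63) in AhR-KO unstimulated libraries, with no overlap (log2 fold change -1.78, SE 0.152, edgeR adjusted p = 1.15e-11). A peak 52.4 kb upstream of Plet1, a surface protein gene on the alveolar macrophage list (chr9:50441462-50442829), had 5.93 to 9.41 CPM (median 7.89) against 2.81 to 3.13 CPM (median 3.04), a change of -1.37 (SE 0.12, edgeR adjusted p = 1.92e-11). The other Plet1 member, 13.9 kb downstream of the start (chr9:50507311-50509615), moved the opposite way: it had 6.24 to 7.85 CPM (median 7.0) in WT and 6.41 to 15.9 CPM (median 12.1) in AhR-KO cells (0.73, edgeR adjusted p = 0.000293), with overlap. At Znhit6 (chr3:145564754-145565185) the level was 2.56 to 6.74 CPM (median 4.69) against 1.28 to 2.06 CPM (median 1.68), a change of -1.58 (SE 0.175, edgeR adjusted p = 3.47e-09). The peak upstream of Ccne1, which encodes cyclin E1 (chr7:38134377-38134908), had 2.79 to 6.01 CPM (median 4.64) against 1.23 to 2.2 CPM (median 1.73), a change of -1.42 (SE 0.156, edgeR adjusted p = 3.16e-09), and the one near Zfp831 changed by -1.34 (edgeR adjusted p = 5.78e-09). Acvr2a, an activin receptor gene of the TGF-β family, had a lower peak too (-0.79, edgeR adjusted p = 2.63e-05). Of the 12 members at lineage factor genes 1 was lower and 2 were higher, and the changes at Klf4 (0.20), Spi1 (0.18) and the strongest Mef2a peak (-0.06) did not pass. Only 9 members lay within 20 Mb of Ahr, where sequence of the strain that carried the allele can persist, and without them the counts were 132 higher and 55 lower.

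With LPS the AhR-KO cells had 59 members (6.96%) as higher and 63 (7.43%) as lower DARs, against 13.4% and 13.1% of all tested peaks. The groups of 6 did not overlap for 15 higher (1.77%, against 10.6% of all peaks) and 37 lower members (4.36% against 8.96%). Among the 70701 peaks called in at least 10 unstimulated lists, 6.12% were higher and 8.18% lower DARs with LPS. The rule admitted no peak called with LPS in either genotype. Members had a median of 0.812 CPM with LPS, against 1.91 CPM for all peaks. Nothing is therefore read from their lower shares of genotype calls with LPS. A change in the same direction in both treatments was called in 33 higher (3.89%) and 18 lower members (2.12%), and in opposite directions in 0, against 5.08%, 6.95% and 0.137% of all tested peaks. Pstpip1 encodes an adaptor of the cytoskeleton. Its intronic peak (chr9:56106623-56107003) was lower in both: 7.56 to 9.06 CPM (median 8.29) in WT and 3.68 to 5.34 CPM (median 4.62) in AhR-KO cells without LPS, and 2.28 to 2.94 CPM (median 2.74) and 1.17 to 1.9 CPM (median 1.43) with it. The log2 fold change was -0.86 in both treatments (edgeR adjusted p = 2.86e-08 and 5.83e-07). The peak 266 kb from Dusp10, the gene of a phosphatase of stress kinases (chr1:184300410-184300855), differed after LPS, with 0.466 to 0.839 CPM (median 0.62) in WT and 0.145 to 0.323 CPM (median 0.214) in AhR-KO libraries (-1.48, edgeR adjusted p = 8.4e-06), while without LPS the groups overlapped (-0.36, edgeR adjusted p = 0.0705). At Sh3bp2, the gene of an adaptor of tyrosine kinase signalling (chr5:34531661-34531991), the LPS libraries had 2.51 to 3.73 CPM (median 3.17) against 1.22 to 2.18 CPM (median 1.74), a change of -0.88 (edgeR adjusted p = 1.17e-05). Among the higher members, an intronic Pard3 peak (chr8:127542283-127542476) had 0.666 to 1.0 CPM (median 0.841) in WT and 1.1 to 1.86 CPM (median 1.56) in AhR-KO LPS libraries (0.90, edgeR adjusted p = 1.3e-05). The Spi1 peak was lower in AhR-KO cells with LPS (-0.65, edgeR adjusted p = 0.00176).

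**Figure D4:**
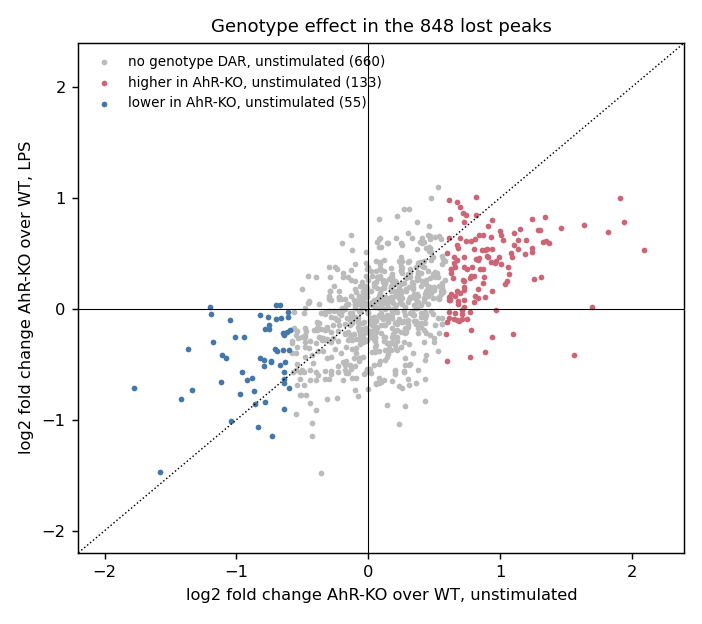
Log2 fold change of AhR-KO against WT for each of the 848 lost peaks without LPS (x axis) and with LPS (y axis). The cloud is shifted to the right (median 0.131 without LPS, 0.011 with LPS), and 133 peaks were higher and 55 lower DARs without LPS.

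The interaction is the change with LPS in AhR-KO cells minus that in WT cells, and a value below 0 means a deeper fall in AhR-KO cells. Both of these changes were used by the rule, which held all LPS levels down, so a member that was higher in AhR-KO cells without LPS could have a value below 0 by its choice. At the DAR threshold it was lower in 77 members (9.08%) and higher in 17 (2.0%), with 4.58% and 5.83% over all tested peaks, and nothing is read from this difference. The peak upstream of Ucp2, a mitochondrial carrier gene (chr7:100487356-100487655), had 1.81 to 2.48 CPM (median 2.0) in WT and 4.56 to 8.76 CPM (median 6.74) in AhR-KO cells without LPS, and 0.689 to 1.27 CPM (median 1.11) and 0.722 to 1.58 CPM (median 1.03) with it, an interaction of -1.68 on the log2 scale. In an intron of Vps13d, a gene for a lipid transfer protein (chr4:145109325-145109757), the medians were 1.81 and 5.21 CPM without and 0.528 and 0.361 CPM with LPS (-1.97). At both, the genotypes did not overlap without LPS and overlapped with it.

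Other members with a lower interaction had the lower median in AhR-KO cells with LPS. The intronic peak of Tle3, a corepressor gene (chr9:61376061-61376921), had 6.26 to 9.23 CPM (median 7.28) in WT and 8.43 to 9.52 CPM (median 9.0) in AhR-KO unstimulated libraries, and 2.64 to 3.88 CPM (median 3.15) and 1.64 to 2.52 CPM (median 1.84) with LPS (interaction -0.97). With LPS the AhR-KO level was lower (log2 fold change -0.71, edgeR adjusted p = 1.28e-05). Near Svil, 3 of the 4 members had a lower interaction. At the intronic one (chr18:4923698-4924408) the medians were 6.59 and 8.89 CPM without and 3.24 and 2.23 CPM with LPS (interaction -1.06), and the AhR-KO level with LPS was lower (-0.63, edgeR adjusted p = 2.23e-05). The Ankrd63 peak (chr2:118706562-118707266) had medians of 8.4 and 13.4 CPM without and 4.21 and 2.97 CPM with LPS (interaction -1.07), and the Spi1 peak had an interaction of -0.83. The Ankrd63 and Tle3 peaks were printed above because they hold AP-1 letters. The Svil, Spi1, Ucp2 and Vps13d peaks hold none in their central 300 bases. A smaller fall in AhR-KO cells was found at Nebl (interaction 1.22), Prlhr (1.14), Pde4d (1.08) and the upstream Plet1 peak (1.02).

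Sequence letters, which the rule did not use, set the members apart from the other peaks in description, with no test. In the central 300 bases PU.1 letters (GAGGAAGT) were found in 135 members (15.9%), against 7.33% of all, 7.52% of kept and 2.69% of the 6017 gained peaks, which were called in at least 10 LPS lists and no unstimulated one. C/EBP letters (TTGCNNAA) were in 21.8% against 15.6% of all peaks, RUNX letters (TGTGGTT) in 15.9% against 10.6%, and KLF letters (CCACACCC) in 7.19% against 3.01%. At least 1 of these 4 was in 441 members (52.0%), against 32.1% of all, 31.2% of kept and 28.2% of gained peaks, and at least 2 were in 72 (8.49% against 4.13%). AP-1 letters (TGANTCA) went the other way: 47 members (5.54%) held them, against 17.9% of all, 15% of kept and 44.8% of gained peaks. SMAD letters (CAGACA) were in 33% against 26.9% of all peaks, and NF-kB letters (GGAANTTCC) in 0.59% against 1.01%. The AhR core (GCGTG) was in 13.2% of members, 16.1% of all and 22.4% of kept peaks. Among peaks that overlap no start site these shares were 13.3%, 13.7% and 16.4%, so members and all peaks were close there. In all, 20 motifs were searched on both strands. CRE letters (TGACGTCA) were in 1 member (0.118%) against 0.468% of all peaks. MEF2 letters (CTANNNNTA) were in 23.8% against 28.1% of all peaks, IRF repeats (GAAANNGAA) in 12.4% against 10.8%, STAT letters (TTCNNNGAA) in 10.4% against 11% and GATA letters (AGATAA) in 12.6% against 13.7%. CTCF letters (AGGGGGCGC) were in 0 members and in 0.579% of all peaks. In the whole consensus peak, where wider peaks have more room for a match, the RUNX share was 1.01 times and the C/EBP share 1.06 times that of all peaks. Against the wider kept peaks, PU.1 letters were then in 21.2% of members and 18.8% of kept peaks. The other shares were lower in members than in kept peaks: 31.2% and 42.3% for C/EBP, 20.6% and 27.8% for RUNX, and 10.0% and 11.2% for KLF.

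**Figure D5:**
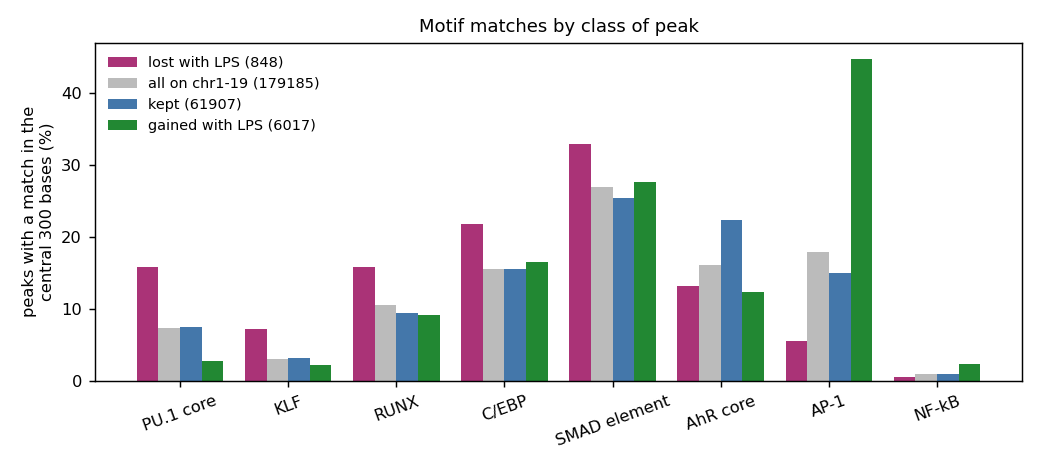
Percentage of peaks that hold each of 8 motifs in their central 300 bases, for lost, all, kept and gained peaks; bars start at 0. PU.1 letters are in 15.9% of lost and 2.69% of gained peaks, AP-1 letters in 5.54% and 44.8%.

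The letters also differed with the genotype call without LPS. RUNX letters were in 22 of the 55 members lower in AhR-KO cells (40%), in 15 of the 133 higher ones (11.3%) and in 14.8% of those with no call, while 13.6% of the kept peaks that were lower in AhR-KO cells held them. KLF letters were in 0 of the 55 and in 16 of the 133 (12%), against 2.23% and 4.34% of the kept peaks called lower and higher. PU.1 letters were in 12 of the 55 (21.8%) and 14 of the 133 (10.5%), against 10.1% and 6.71% of the kept peaks called lower and higher. AhR core letters were in 4 of the 55 (7.27%) and 16 of the 133 (12%), against 17.3% and 15.5% of these kept peaks. The Pde4d and Znhit6 peaks printed above are 2 of the 22 with RUNX letters. Members with PU.1 letters kept a median of 29% of their level and those without 30.9%, and for C/EBP letters these were 27.5% and 31%.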

How the data were processed

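ATAC-seq was measured in 24 libraries, 6 in each of 4 groups taken from the labels. The authors trimmed, aligned (mm10) and filtered the reads with the nf-core atacseq pipeline (bcl2fastq 2.20.0 before it), called broad peaks in each library with MACS2, and merged them into consensus peaks. Per the file headers, featureCounts 2.0.1 gave the deposited raw counts of read pairs in each consensus peak, with a pair counted in every peak that held at least 0.2 of it. The peak lists as deposited by the authors give for each entry MACS2's fold enrichment over the local background, a −log10 p-value and a −log10 q-value, of which the q-value was used in 1 alternative. Any overlap of 1 base or more counted as a call. Starts of peaks are those of the deposited table, which equal the 0-based starts of the peak lists.

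Counts were fitted over all peaks with edgeR 4.0.16 in R 4.3.3 (TMM scaling, filterByExpr, quasi-likelihood test, 1 coefficient per group, Benjamini-Hochberg adjustment). The DAR threshold was an adjusted p up to 0.05 with a 1.5-fold change or more. The procedure was also run on simulated counts with the same spread for all peaks, a simpler setting than these libraries, and nothing is read from it. Total counts per library, 8.54 to 34.6 M, set the precision of a level. All pairs of libraries of a group differed by more than sampling noise (chi-square per degree of freedom 1.26 to 8.88 over 60 pairs). The nearest gene is the closest protein-coding start in GENCODE M21, and sequence is GRCm38 from RefSeq. Named peaks were the 10 most accessible, the 5 with the most and the 5 with the least level left among members of at least the median unstimulated level, the 5 DARs of smallest p in each tested contrast and direction, the 8 most accessible at start sites, the 3 most accessible of each gene list and the peaks of the 8 genes with the most members. Gene lists and members were chosen with earlier results of these data known. Alternatives were RLE scaling, DESeq2 1.42.0, no low-count filter, a replicate block, a fit without the shallowest library, other forms of the rule and other windows. The libraries of a group came from separate animals per the study's methods. Whether replicate numbers mark shared animals is not stated, and they were not used as pairs. Chromosomes X and Y were left out by the rule.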

Additional observations from a re-analysis of the deposited data

Results flagged for a closer look

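Within a group of 6, a library was set apart where its gap to the nearest other library, over the range, exceeded the 95% critical value of Dixon's test. Of 368 groups checked for the named peaks and the summed level, 15 had such a library, and chance sets apart about 1 in 20 groups. The summed level of the lost peaks was 878 CPM in AhR-KO LPS replicate 3 against 936 to 950 CPM in the other 5. That library was also apart at Znhit6 (0.361 CPM, others up to 0.218) and Axl (0.451 CPM, others from 0.752). WT unstimulated replicate 5, the shallowest library, was apart at Btg1 (2.33 CPM, others 3.58 to 4.09) and at the Hs3st2 peak 21.1 kb from the start (3.61 CPM, others 2.6 to 2.72), where AhR-KO unstimulated replicate 1 also stood out (3.3 CPM). AhR-KO LPS replicate 6 was apart at a Myc peak (1.01 CPM) and an Apc peak (0.608 CPM), replicate 1 at Mapre2 (1.87 CPM), replicate 5 at Ankrd63 (3.7 CPM) and replicate 4 at Rxfp2 (3.4 CPM). WT LPS replicate 2 was apart at Vps13d (0.799 CPM) and replicate 5 at Pvrig (1.22 CPM). AhR-KO unstimulated replicate 1 was apart at Smurf1 (8.38 CPM) and replicate 5 at a Mef2a peak (2.37 CPM).

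By the interaction term in edgeR the change with LPS differed between the genotypes in 25 named members, a description only, since the rule used the change with LPS in both. In 17 of them the log2 fold change of AhR-KO against WT was lower with LPS than without: by -1.97 at Vps13d, -1.68 at Ucp2, -1.56 at Flrt2, -1.16 at Sh3bp2 and at Rasgrf1, -1.14 at Actl9, -1.12 at Dusp10, -1.07 at Ankrd63, -1.06, -0.92 and -0.76 at 3 Svil peaks, -0.98 at Apc, -0.97 at Tle3, -0.91 at C8a, -0.83 at Spi1, -0.80 at Capn15 and -0.73 at Rin3. In 8 it was higher with LPS: by 1.22 at Nebl, 1.14 at Prlhr, 1.08 at Pde4d, 1.02 at Plet1, 0.69 at Hs3st2, 0.63 at 9430038I01Rik, 0.60 at Mbd2 and 0.59 at Pard3. Among the named members, 5 in each direction were named for the smallest p of the interaction. The counts of 25, 17 and 8 follow in part from that choice. Over all tested peaks the interaction was lower in 4.58% and higher in 5.83%, and nothing is read from these counts.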

How the results depend on the processing

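The number of lost peaks followed the rule: 267 for 12 of 12 unstimulated lists, 1618 for at least 8, and, in a form chosen after seeing the data, 1363 without the lists of WT replicates 1 and 5, against 848. Leaving out WT unstimulated replicate 5 gave 1083. With 12 of 12 lists, 20 members were lower and 45 higher in AhR-KO cells without LPS. Without the lists of both shallow libraries, which are WT, 79 were lower and 278 higher. These forms were also chosen after seeing the data. RLE scaling and DESeq2 gave 11 and 10 members with a higher interaction in place of 17. The other counts of genotype and interaction calls stayed within 1.5 times under RLE scaling, DESeq2, no low-count filter, the fit without replicate 5 and the region around Ahr left out. With the replicate number as a block the counts were 56 lower and 133 higher without LPS, 62 and 63 with LPS, and 81 and 18 for the interaction. Correlations of same-numbered libraries, as deviations from the group mean, were above 0.1 in 5 of 6 pairs between the treatments of WT cells (0.0486 to 0.343) and in 3 of 6 of AhR-KO cells (0.00876 to 0.21), so a hint of pairing within a genotype was there but not in every pair. Between the genotypes without LPS 0 of 6 were above 0.1 (-0.144 to 0.0615), and with LPS 2 of 6 (-0.127 to 0.268). Of 85 calls of named members, 5 fell short under at least 1 alternative (the interaction at Mbd2, 9430038I01Rik and Pard3, and the change without LPS at Ankrd63 and Pvrig), and 0 changed sign. Many of these members were named for a small p or a high level, so the count does not speak for the other lost peaks.

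Against all peaks, the share with a motif in the whole consensus peak was 1.63 times for PU.1 (2.17 in 300 bases), 1.06 for C/EBP (1.4), 1.01 for RUNX (1.5, and 1.24 in 500 bases), 1.45 for KLF (2.39) and 0.689 for the AhR core (0.82). The members were narrower than all peaks. Among peaks that overlap no start site the ratios in 300 bases were 2.09 for PU.1, 1.36 for C/EBP and 1.44 for RUNX. They were 2.38 for KLF and 0.971 for the AhR core. That form was chosen after seeing the data. Counting only members in a gene's body or within 5 kb upstream left 2 for alveolar macrophage genes, 5 for lineage factors, 0 for scavenger receptors, 1 for G protein-coupled receptors, 1 for eicosanoid synthesis, 0 for cell cycle genes and 0 for markers of other cells. Levels with LPS were near 1 CPM, so differences between genotypes with LPS rest on few reads per library.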

Other observations

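On chromosome X, outside the rule, 38 of 4794 consensus peaks were likewise called in at least 10 unstimulated lists and in no LPS list.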
